A study of Danio rerio with 15 samples.

Results

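The Myc family genes of the zebrafish were described across 15 arrays of melanoma and skin. Members were the probe sets whose single gene symbol in the platform annotation was mycn, mych, myca, mycb, mycla or myclb. This gave 7 probe sets of 6 genes, of 15502 probe sets and 8793 genes tested. The gene mycn had 2 probe sets and the other 5 genes had 1 each, so all 6 genes had a value in every array.

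Myc proteins are transcription factors with a basic helix-loop-helix leucine zipper. They bind DNA as dimers with Max and raise the transcription of genes for ribosome assembly, nucleotide synthesis and entry into the cell cycle, while Mxd, Mnt and Mga proteins compete with them for Max or for its sites. Zebrafish carry paired copies of some mammalian genes: myca and mycb are relatives of mammalian MYC, mycla and myclb are relatives of MYCL, and mycn is the counterpart of MYCN, a gene of the embryonic nervous system and neural crest that is amplified in human neuroblastoma. The gene mych is a further fish gene, studied for the survival of neural crest cells in the zebrafish head.

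The study set 6 melanomas and 6 pieces of the skin directly beside a melanoma, here called mutant skin, from fish with the genotype mitf-BRAFV600E;p53-/-, against 3 pieces of skin from wild-type fish labelled Tu, all at 4 to 8 months of age. The BRAFV600E transgene, an activated form of the kinase BRAF, is under the control of the mitf promoter, which is active in pigment cells, and the p53 loss is carried by the whole fish, so mutant skin differs from wild-type skin in both. Mutant skin came from beside a tumour and wild-type skin from along the flank, so genotype, site and closeness to a tumour cannot be told apart between them. The labels do not say whether each sample came from its own fish, so p-values measure the spread between these samples.

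Values are on the log2 scale against a reference level of each probe set that is not stated, so they can be compared between arrays and not between genes. Tissue pieces were mixed: the level of 24 measured oocyte genes, the mean over the list after subtracting each gene's mean over all arrays, was 0.78 to 4.61 in 7 arrays (mutant skin 1, 2, 4 and 6; melanoma 6; wild-type skin 1 and 2) and -3.29 to -1.47 in the other 8 arrays. These are called high-oocyte arrays below. The labels held for pigment cells: 4 of 5 measured melanocyte genes were raised in melanoma against mutant skin, and mitfa, the master regulator of melanocytes, was -0.40 to 3.36 in the melanomas and -5.24 to -1.49 in mutant skin. Melanoma 6 stood apart, with a melanocyte level of 0.24 against 2.46 to 3.18 in the other 5 melanomas, and a skeletal muscle level of 0.66 against -4.60 to -2.73. Mutant skin 2 had a keratinocyte level of -1.56, inside the -2.83 to -0.71 of the melanomas, against -0.25 to 2.05 in the rest of the mutant skin. In these bulk samples fewer cells of a type and less RNA per cell cannot be told apart.

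The first question was which Myc genes differ between a melanoma and the skin beside it. One of the 6 genes was higher in melanoma, mycn, and 1 was lower, myclb, while mych, myca, mycb and mycla did not pass the test. Over all genes 7.41% were raised and 5.63% were lowered at an adjusted p under 0.05 (limma with Benjamini-Hochberg adjustment over 8793 genes). With 6 members, 1 called in each direction is too few to set the family apart from that background.

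The gene mycn was 2.09, 2.78, 1.42, 3.34, 2.16 and 1.06 in melanoma 1 to 6. In mutant skin 1 to 6 it was -3.67, -0.65, -2.93, -3.19, -0.50 and -4.06, while the wild-type samples 1 to 3 read -3.97, -2.28 and -1.78. Every melanoma lay above every piece of skin, melanoma 6 included. The highest skin values were those of mutant skin 5 and mutant skin 2, and the lowest melanoma values those of melanoma 6 and melanoma 3.

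Against mutant skin, mycn rose 24.99-fold, a log2 change of 4.64 ± 0.66 (SE), from -2.50 ± 1.54 (SD, n = 6) to 2.14 ± 0.84 (n = 6), with an adjusted p of 0.00173. It ranked 5 of 8793 genes by the size of its rise. Groups without overlap, with melanoma higher, were found for 1.60% of all genes. Against wild-type skin, at -2.68 ± 1.15 (n = 3), mycn rose 28.2-fold (log2 change 4.82 ± 0.80, adjusted p = 0.00207). This comparison uses the same melanomas. Here 9.34% of genes were raised, and 9.09% had all melanomas above all wild-type skin.

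The rise held in the arrays with less oocyte RNA. Without the 7 high-oocyte arrays, which leaves 5 melanomas, 2 mutant skin arrays and 1 wild-type array, the log2 change of mycn was 4.07 (adjusted p = 0.00416) against mutant skin and 4.14 (adjusted p = 0.0134) against wild-type skin, the lone wild-type array being assumed to vary like the other groups. Adding the oocyte level to the model as a covariate gave changes of 4.04 (adjusted p = 0.00426) and 4.23 (adjusted p = 0.00224).

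Both mycn probe sets gave the rise. The log2 changes against mutant skin were 4.48 ± 0.66 for one (limma adjusted p = 0.00221 over 15502 probe sets) and 4.80 ± 0.70 for the other (adjusted p = 0.00205). Across the 15 arrays their correlation was 0.97, as a description. They were less alike in melanoma 6, where they read 1.34 and 0.78, the first inside the 1.17 to 3.10 of melanoma 1 to 5 and the second below their 1.67 to 3.58.

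**Figure D1:**
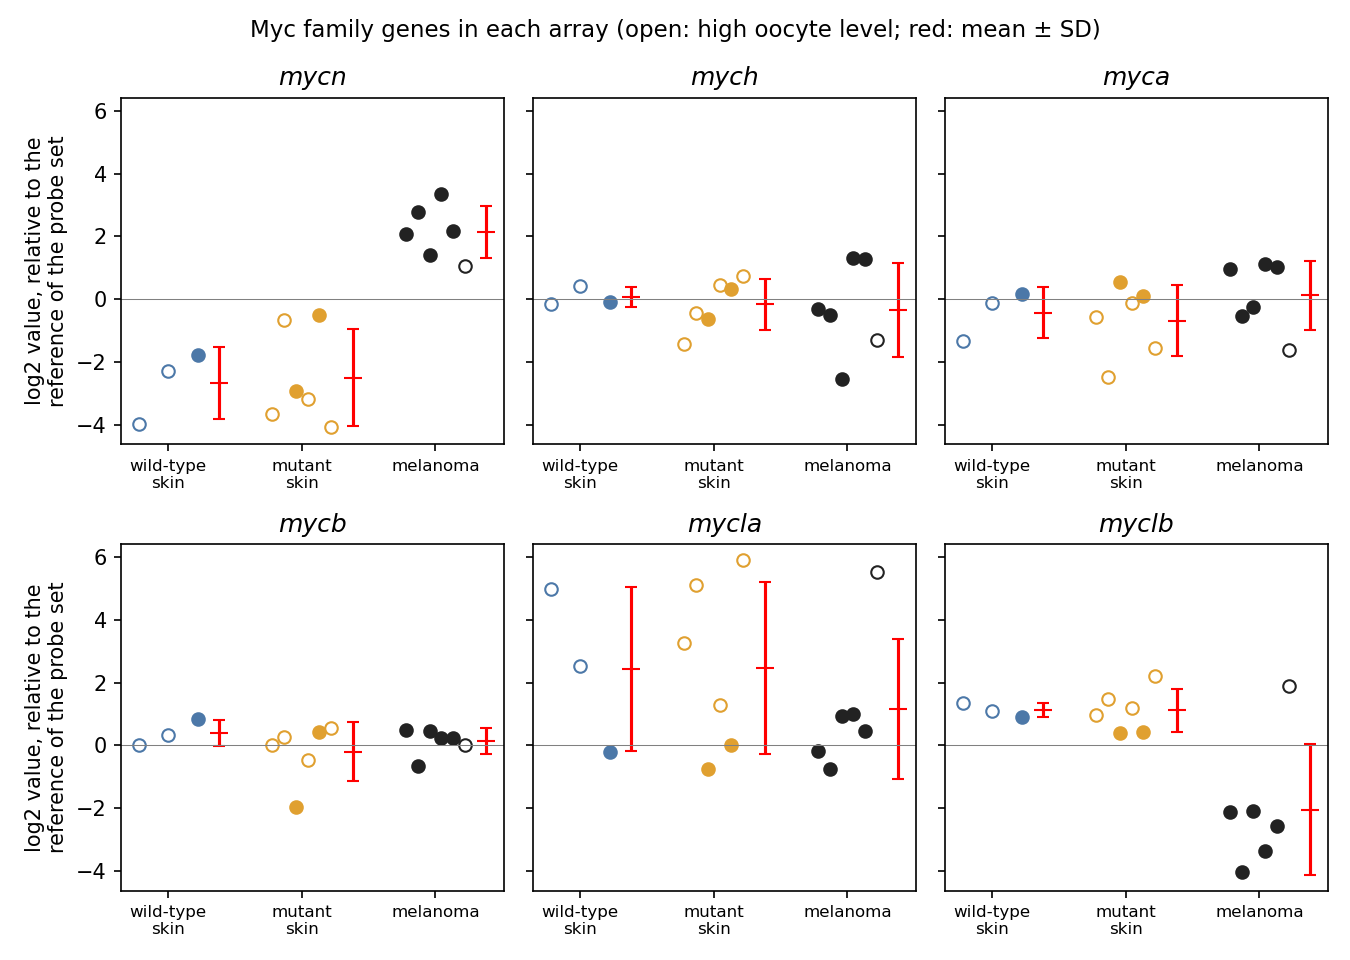
Log2 value (vertical axis, relative to the reference of the probe set) of each Myc family gene in every array, in 3 groups along the horizontal axis and in order of replicate number. Open circles are the 7 high-oocyte arrays, and red bars are the group mean ± SD. The 6 melanomas lie above all skin for mycn, melanoma 1 to 5 lie below all skin for myclb, and the open circles lie highest for mycla.

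The melanocyte marker level, like mycn, was higher in every melanoma than in any skin. Its correlation with mycn over the 15 arrays was 0.94, as a description that includes the difference between the groups. Mutant skin 2 and 5, the pair with the highest mycn among the skin samples, had melanocyte levels of -0.40 and -1.08, and the rest of that group had -2.14 to -1.42. In wild-type skin it was -2.03 to -1.90. The lowest melanocyte level of a melanoma, 0.24, came with the lowest mycn. Other arrays did not follow that order: melanoma 3 had the second lowest mycn of the melanomas at a melanocyte level of 2.99, above the 2.46 of melanoma 5, and wild-type skin 3 had more mycn than mutant skin 3 (-1.78 and -2.93) at a lower melanocyte level (-1.90 and -1.42). The part of pigment cell content in the rise of mycn was not tested.

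Among all 8793 genes the 5 whose pattern over the 15 arrays was most like that of mycn were mitfa (Pearson r = 0.97), lypla2 (0.97), the neural crest and melanocyte regulator gene sox10 (0.97), the protocadherin gene pcdh10b (0.95) and the synaptic vesicle gene syngr1a (0.95). These values reflect the difference between the groups to a large part, so the correlation of the deviations from the group means is given beside them: it was 0.85, 0.86, 0.83, 0.75 and 0.69 in the same order. The least alike were tmem54a (r = -0.91) and wu:fi36a10 (-0.90). The arrays share their tissue mixture, and no test was made of these correlations.

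The gene mych was -0.30, -0.49, -2.53, 1.32, 1.28 and -1.30 in melanoma 1 to 6. It was -1.43, -0.43, -0.64, 0.44, 0.31 and 0.74 in mutant skin 1 to 6. The wild-type samples 1 to 3 read -0.17, 0.43 and -0.09. The melanomas spread on both sides of the skin, with melanoma 4 and 5 above all skin and melanoma 3 below all skin, so that the SD was 1.49 in melanoma, 0.81 in mutant skin and 0.32 in wild-type skin.

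The log2 change of mych was -0.17 ± 0.60 against mutant skin (adjusted p = 0.893) and -0.39 ± 0.73 against wild-type skin (95% interval -1.95 to 1.16, adjusted p = 0.742). The interval leaves room for a change of more than 2-fold either way, so equal levels are not shown. Its closest genes over the 15 arrays were seta (r = 0.82), a chromatin and phosphatase inhibitor gene, rpl29 (0.78), a ribosomal protein gene, arhgap12b (0.77), med22 (0.76), a Mediator subunit gene, and hdac6 (0.75), and the least alike were sptlc3 (-0.80) and cul5b (-0.73). All of these lay below the 0.95 of the fifth closest gene to mycn, whose values include the large difference between its groups. For the deviations from the group means, r was 0.86, 0.77, 0.77, 0.77 and 0.81 for the 5 genes closest to mych. These cannot be set against the 0.69 to 0.86 of the 5 closest to mycn. Both sets were picked by their r over all arrays, which for mycn includes the large difference between its groups. Whether mych has weaker or equal likeness to other genes is thus not shown.

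The measured changes of mycn and mych differed. Within each array the mycn value minus the mych value was 2.48 ± 1.06 (SD, n = 6) in melanoma, -2.33 ± 1.71 (n = 6) in mutant skin and -2.73 ± 1.06 (n = 3) in wild-type skin. Only the contrast between groups can be read from these, since each gene has its own reference. The mych value rests on 1 probe set, and whether its signal lies near background is unknown. A difference between the genes and one in the response of their probe sets cannot be told apart. The lowest melanoma, at 0.88, was above the highest mutant skin, at -0.22, and the highest wild-type skin, at -1.69. The contrast was 4.81 against mutant skin (two-sided exact permutation test, p = 0.00216, the smallest that 924 arrangements can give, adjusted p = 0.00649 over 3 comparisons) and 5.21 against wild-type skin (exact p = 0.0238 of 84 arrangements, adjusted p = 0.0357). The melanomas lay above all wild-type skin, so 0.0238 is already the lowest p that this two-sided test gives here. The second call was lost without any 1 melanoma (exact adjusted p = 0.0536) or any 1 wild-type array (exact adjusted p = 0.107). The groups stayed apart in each case, so the loss reflects too few arrays for the test to pass.

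The genes myca and mycb had no called difference. The gene myca was 0.97, -0.52, -0.24, 1.11, 1.02 and -1.63 in melanoma 1 to 6, -0.58, -2.47, 0.54, -0.14, 0.09 and -1.57 in mutant skin 1 to 6, then -1.34, -0.12 and 0.17 in wild-type skin 1 to 3. Its lowest values were in mutant skin 2, melanoma 6, mutant skin 6 and wild-type skin 1, the 4 arrays with the highest oocyte levels (3.97 to 4.61). Its log2 change was 0.80 ± 0.58 against mutant skin (95% interval -0.43 to 2.04, adjusted p = 0.398) and 0.55 ± 0.71 against wild-type skin (adjusted p = 0.626). Under the model with an oocyte covariate these became -0.22 (adjusted p = 0.689) and -0.45 (adjusted p = 0.44), so no direction can be given.

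The gene mycb lay in a narrow range. It was 0.48, -0.65, 0.46, 0.25, 0.24 and 0.01 in melanoma 1 to 6, 0.01, 0.28, -1.97, -0.47, 0.41 and 0.56 in mutant skin 1 to 6, and the wild-type samples 1 to 3 read 0.02, 0.32 and 0.83. Mutant skin 3 was the lowest of all, and 14 of 15 arrays lay between -0.65 and 0.83. The log2 change was 0.33 ± 0.39 against mutant skin (95% interval -0.50 to 1.16, adjusted p = 0.646) and -0.26 ± 0.48 against wild-type skin (-1.28 to 0.76, adjusted p = 0.741).

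The gene mycla separated the arrays by oocyte RNA and not by group. It was 3.26, 5.12, 1.28 and 5.91 in mutant skin 1, 2, 4 and 6, 5.52 in melanoma 6 and 4.99 and 2.54 in wild-type skin 1 and 2, which are the 7 high-oocyte arrays. In the other 8 it was -0.77 and 0.00 in mutant skin 3 and 5, -0.19, -0.77, 0.93, 1.00 and 0.44 in melanoma 1 to 5 and -0.21 in wild-type skin 3. All 7 lay above all 8, and the correlation of mycla with the oocyte level was 0.94 over 15 arrays, as a description. The share of all genes that split the arrays this way was not counted, so the split is not shown to be particular to mycla.

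The log2 change of mycla was -1.31 ± 1.32 against mutant skin (95% interval -4.13 to 1.51, adjusted p = 0.575) and -1.28 ± 1.62 against wild-type skin (adjusted p = 0.616), the widest errors of the family. Among the 8 arrays with less oocyte RNA the changes were 0.67 (adjusted p = 0.397) and 0.50 (adjusted p = 0.61). Under the model with an oocyte covariate they were 1.46 ± 0.41 (adjusted p = 0.0221) and 1.42 ± 0.48 (adjusted p = 0.0361), past the threshold and in the opposite direction to the change over all arrays. Melanoma 6 was the only melanoma with a high oocyte level, so within melanoma the covariate rests on that array.

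The gene myclb was low in 5 of 6 melanomas. It was -2.14, -4.03, -2.08, -3.37 and -2.57 in melanoma 1 to 5 and 1.90 in melanoma 6. In mutant skin 1 to 6 it was 0.97, 1.48, 0.40, 1.2004, 0.43 and 2.22, while the wild-type samples 1 to 3 read 1.36, 1.08 and 0.91. Melanoma 1 to 5 lay below every piece of skin, and melanoma 6 above all skin but mutant skin 6. With melanoma 6 counted the groups overlapped. The share of all genes with melanoma 1 to 5 below all skin was not counted.

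Against mutant skin myclb fell 8.97-fold, a log2 change of -3.16 ± 0.75, from 1.12 ± 0.69 (SD, n = 6) to -2.05 ± 2.08 (n = 6), with an adjusted p of 0.0146. Against wild-type skin, at 1.12 ± 0.23 (n = 3), the log2 change was -3.17 ± 0.92 (adjusted p = 0.0298). Here 7.48% of genes were lowered. Without melanoma 6 the changes were -3.95 (adjusted p = 2.24e-05) and -3.96 (adjusted p = 9.71e-05). Leaving out this array also raised the number of genes called over the whole table against mutant skin, to 1962. The call against wild-type skin was lost without any 1 of melanoma 1, 2, 4 or 5 or of the wild-type arrays (adjusted p of 0.0516 to 0.0984). Leaving out single arrays did not end the call against mutant skin (adjusted p up to 0.0366).

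Within skin, myclb was 0.40, 0.43 and 0.91 in the 3 arrays with less oocyte RNA and 0.97 to 2.22 in the 6 with more. Without the high-oocyte arrays its log2 change was -3.25 (adjusted p = 0.0038) against mutant skin and -3.75 (adjusted p = 0.00775) against wild-type skin. With that level as a covariate it was -1.93 (adjusted p = 0.027) and -1.96 (adjusted p = 0.037). Keratinocyte and muscle markers were also lower in melanoma: 12 of 20 keratinocyte genes and 19 of 21 skeletal muscle genes were lowered against mutant skin, their levels being -2.83 to -0.71 and -4.60 to 0.66 in the melanomas. Arrays with high myclb had both low and high keratinocyte levels. Melanoma 6 was at -1.30 with myclb at 1.90, and mutant skin 2 at -1.56 with myclb at 1.48. Wild-type skin 1 was at 0.42 with myclb at 1.36, and mutant skin 4 at 2.05 with myclb at 1.2004. Mutant skin 6, with the highest myclb, was at -0.25. The skeletal muscle levels of melanoma 6 and mutant skin 2 were 0.66 and -0.16, against -4.60 to -2.73 in melanoma 1 to 5. The part of keratinocyte and muscle content in the fall of myclb was not tested. Named after the values were seen, the genes most like myclb were lipg, an endothelial lipase gene (r = 0.98), myo1eb (0.96) and tjp3, a tight junction gene (0.96). The least alike over the 15 arrays were rab3c (-0.97), snx14 (-0.96) and sox2 (-0.96). For the deviations from the group means, r was 0.94, 0.93, 0.91, -0.92, -0.90 and -0.91 in the same order. The correlation of myclb was 0.82 with the oocyte level and -0.89 with the melanocyte level, both including the difference between the groups. No test was made of these correlations.

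**Figure D2:**
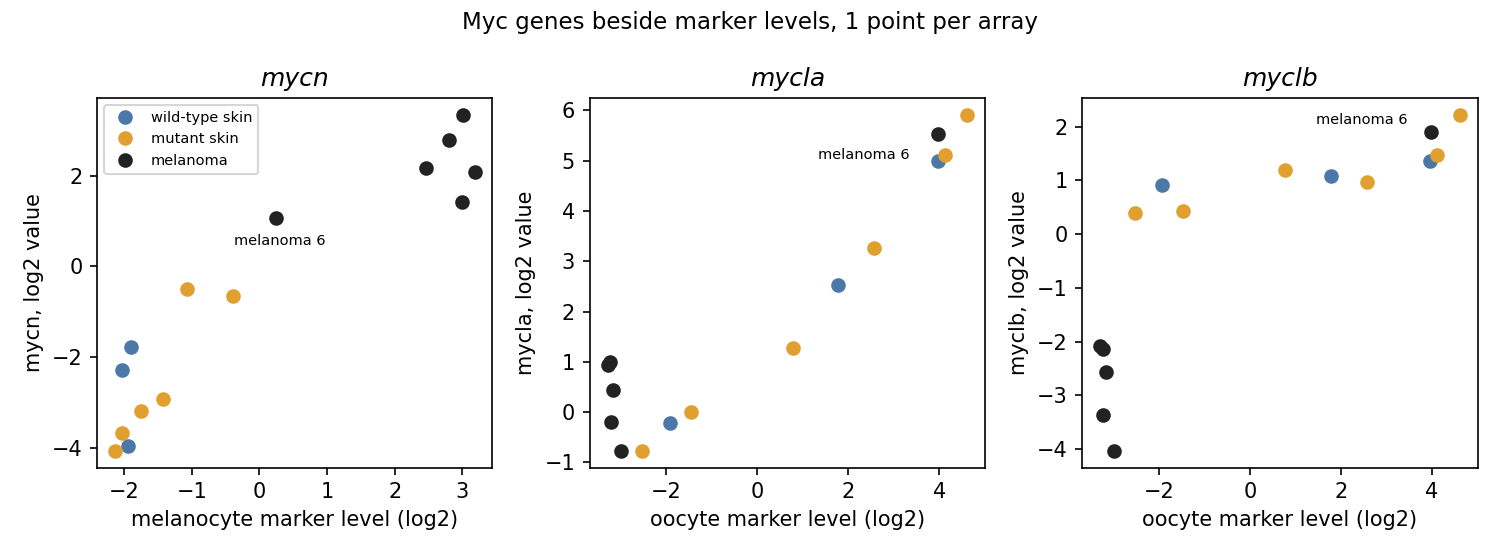
Log2 value of mycn against the melanocyte marker level and of mycla and myclb against the oocyte marker level, with 1 point per array coloured by group and melanoma 6 marked. For mycn the melanomas lie at 1.06 to 3.34 and the skin at -4.06 to -0.50, mycla is highest at the right in all groups, and for myclb melanoma 1 to 5 lie apart at the lower left.

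The last comparison asked whether the skin beside a melanoma differs from wild-type skin. None of the 6 Myc genes was called by limma, while 0.136% of all genes were called. None of the 6 had an unadjusted p under 0.05, and 7.26% of all genes did, so 0 of 6 is near the background. The log2 changes were 0.17 ± 0.80 for mycn (95% interval -1.54 to 1.89), -0.23 ± 0.73 for mych, -0.26 ± 0.71 for myca, -0.59 ± 0.48 for mycb, 0.03 ± 1.62 for mycla and -0.003 ± 0.92 for myclb. Mutant skin and wild-type skin thus could not be ordered for any of these genes, and for mycn a difference of 2-fold either way lies inside the interval. The order of the group means was melanoma, mutant skin, wild-type skin for mycn, and the latter pair did not differ beyond its spread.

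**Figure D3:**
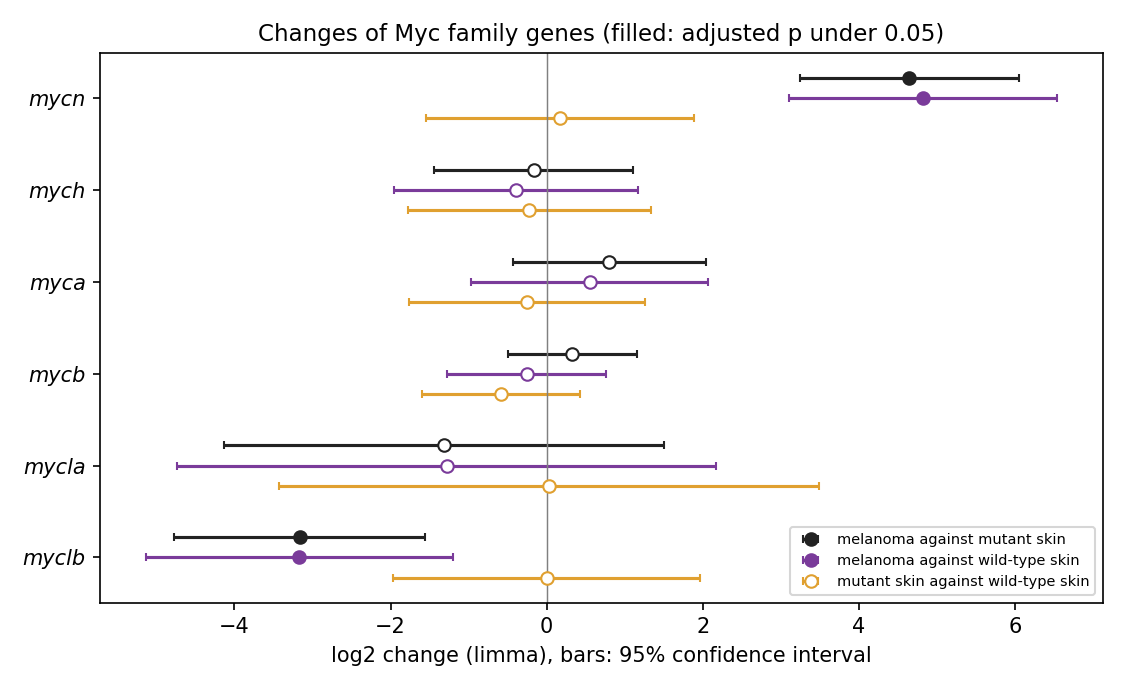
Log2 change of each Myc family gene in 3 comparisons, with 95% confidence intervals from limma, filled where the adjusted p is under 0.05. For mycn (4.64 and 4.82) and myclb (-3.16 and -3.17) the points of melanoma against either skin are filled, and the other points are open.

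Genes around the Myc proteins were followed with 7 lists. Of the genes that share Max with Myc or act through it, 7 of 17 listed were measured, and none was called against mutant skin by limma or had an unadjusted p under 0.05, which 27.8% of all genes had. The partner gene max changed by 0.27 ± 0.30 on the log2 scale (adjusted p = 0.62), and the others ran from -0.47 for the corepressor gene sin3aa to 1.19 for the Max partner gene mxd4 (adjusted p = 0.221). Of 19 measured cofactor genes, for acetyltransferase, chromatin remodelling and elongation factors, 0 were called against mutant skin by limma and 5 had an unadjusted p under 0.05, a share of 26.3% beside the 27.8% of all genes. Against wild-type skin 2 of the 19 rose, a share of 10.5% near the 9.34% of all genes. They were smarca4a (1.42 ± 0.42, adjusted p = 0.0311) and smarcb1b (2.52 ± 0.77, adjusted p = 0.0373), which encode subunits of the SWI/SNF remodeller. Of 12 genes that act on the stability of Myc proteins, huwe1, a ubiquitin ligase gene, rose against mutant skin (1.03 ± 0.32, adjusted p = 0.0462), a share of 8.33% beside the 7.41% of all genes. The kinase gene aurka, whose product protects MYCN from breakdown in human neuroblastoma cells, had a log2 change of -0.21 ± 1.09 (adjusted p = 0.93).

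Known classes of Myc target genes moved in a few members each. Of 55 nucleolar genes for ribosome assembly 5 rose and none fell against mutant skin, a share of 9.09% near the 7.41% of all genes, with a median log2 change of 0.29 against 0.02 over all genes. They were imp4 (1.58 ± 0.46, adjusted p = 0.034) and bysl (1.02 ± 0.30), both for the small subunit, pa2g4b (0.93 ± 0.29), wdr74 (0.81 ± 0.26) for the large subunit, and the RNA acetyltransferase gene nat10 (0.81 ± 0.24). The nucleolar genes ncl and npm1a changed by 0.32 ± 0.30 (adjusted p = 0.539) and 0.40 ± 0.25 (adjusted p = 0.318).

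Of 21 polyamine, one-carbon and nucleotide enzyme genes 4 rose and none fell against mutant skin (19.0% beside the 7.41% of all genes, median 0.59). These were the purine enzyme genes paics (2.89 ± 0.49, adjusted p = 0.00323) and ppat (1.69 ± 0.45, adjusted p = 0.0241), prps1b (1.44 ± 0.43), whose product makes the ribose phosphate donor, and the CTP synthase gene ctps1a (1.25 ± 0.38). Of the 4, only paics kept its call whichever single array was left out. The 19.0% was not tested against the share of all genes. The gene odc1, the entry enzyme of polyamine synthesis and a standard Myc target in mammals, changed by -0.14 ± 0.65 (adjusted p = 0.923). Of 14 genes of cell cycle entry 2 rose and none fell (median 0.84). With 2 genes called, the share of 14.3% cannot be set apart from the 7.41% of all genes. They were the replication helicase genes mcm3 (2.82 ± 0.45, adjusted p = 0.00275) and mcm6 (1.34 ± 0.41, adjusted p = 0.0454). Of 7 genes that MYC represses in mammalian cells 1 rose and none fell (median -0.01), again too few to set beside that share. It was ndrg1a, named for being lowered by N-Myc, at 1.84 ± 0.41 (adjusted p = 0.0111). In this list 1 gene fell without the high-oocyte arrays, cebpa, a differentiation factor gene (-2.43, adjusted p = 0.0344), and 2 fell with the oocyte level as a covariate, cebpa (-2.55, adjusted p = 0.00631) and the stress gene gadd45aa (-1.42, adjusted p = 0.0193), while ndrg1a was raised in both. The 2 were named after their values were seen. Over all 8793 genes 1003 and 970 were lowered in the same settings. With 7 genes in the list, its falls are too few to set apart from these.

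These counts depended on the arrays. Of the 13 genes called in the 7 lists against mutant skin, paics, mcm3 and ndrg1a stayed past the threshold without any 1 array. The other 10 lost the call without any 1 of between 5 arrays (ppat, with adjusted p up to 0.0608 when melanoma 1 or 4, or mutant skin 1, 3 or 4, was left out) and 13 arrays (wdr74, adjusted p up to 0.118, and huwe1, up to 0.109). Without the 7 high-oocyte arrays 14 nucleolar genes, 8 enzyme genes, 8 cell cycle genes, 3 cofactor genes and 3 stability genes rose, and with the oocyte level as a covariate 12, 8, 10, 6 and 3. The calls over the whole table also grew: 11.1% of all genes were raised and 1003 of 8793 were lowered without these arrays, and 11.7% were raised and 970 were lowered with the covariate. The shares raised were 25.5% and 21.8% for the nucleolar list, 38.1% in both settings for the enzymes, 57.1% and 71.4% for the cell cycle, 15.8% and 31.6% for the cofactors and 3 of 12 in both for the stability genes, without a test of the difference from all genes. With the covariate the median changes of the nucleolar and cell cycle lists were 0.67 and 1.68, against 0.04 over all genes. Among the stability genes aurka was called in both (1.58, adjusted p = 0.0116, and 1.98, adjusted p = 0.0133). The cell cycle list stood at 0.50 and 0.90 in mutant skin 2 and 6, at -0.18 and -1.02 in mutant skin 1 and 4, which are also high-oocyte arrays, and at -0.88 and -1.51 in mutant skin 3 and 5.

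Against wild-type skin 5 of 55 nucleolar genes rose, noc2l (1.91 ± 0.56), noc3l (1.43 ± 0.36), noc4l (1.97 ± 0.59), the RNA polymerase I and III subunit gene polr1c (1.45 ± 0.45) and nat10 (0.93 ± 0.30), beside 9.34% of all genes. The enzyme list had 5 raised genes of 21 (23.8%), paics (3.09 ± 0.60), gart (2.202 ± 0.58), prps1b (1.98 ± 0.52), ppat (1.92 ± 0.55) and ctps1a (1.42 ± 0.46). The cell cycle list had 1 raised gene of 14 (7.14%), mcm3 (2.87 ± 0.55). The repressed list had 1 of 7 (14.3%), ndrg1a (2.62 ± 0.51). With 1 gene each, these shares cannot be set apart from the 9.34% of all genes. The 23.8% of the enzyme list was not tested against it. No listed gene fell except myclb. Of the 14 genes called here outside the Myc family, paics, mcm3 and ndrg1a held without any 1 array, and the other 11 were lost without wild-type skin 2 or 3 (adjusted p up to 0.232), and some also without other arrays. Between mutant and wild-type skin 0 genes of these lists were called by limma, while 2 cofactor genes, 1 stability gene, 4 nucleolar genes, 1 enzyme gene, 1 cell cycle gene and 1 repressed gene had an unadjusted p under 0.05. Over all genes that share was 7.26%. It was 10.5% for the cofactors, 8.33% for the stability genes, 7.27% for the nucleolar list and 4.76% for the enzymes. It was 7.14% for the cell cycle, 14.3% for the repressed genes and 0% for the genes around Max. With so few genes, no list can be set apart from the share over all genes.

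**Figure D4:**
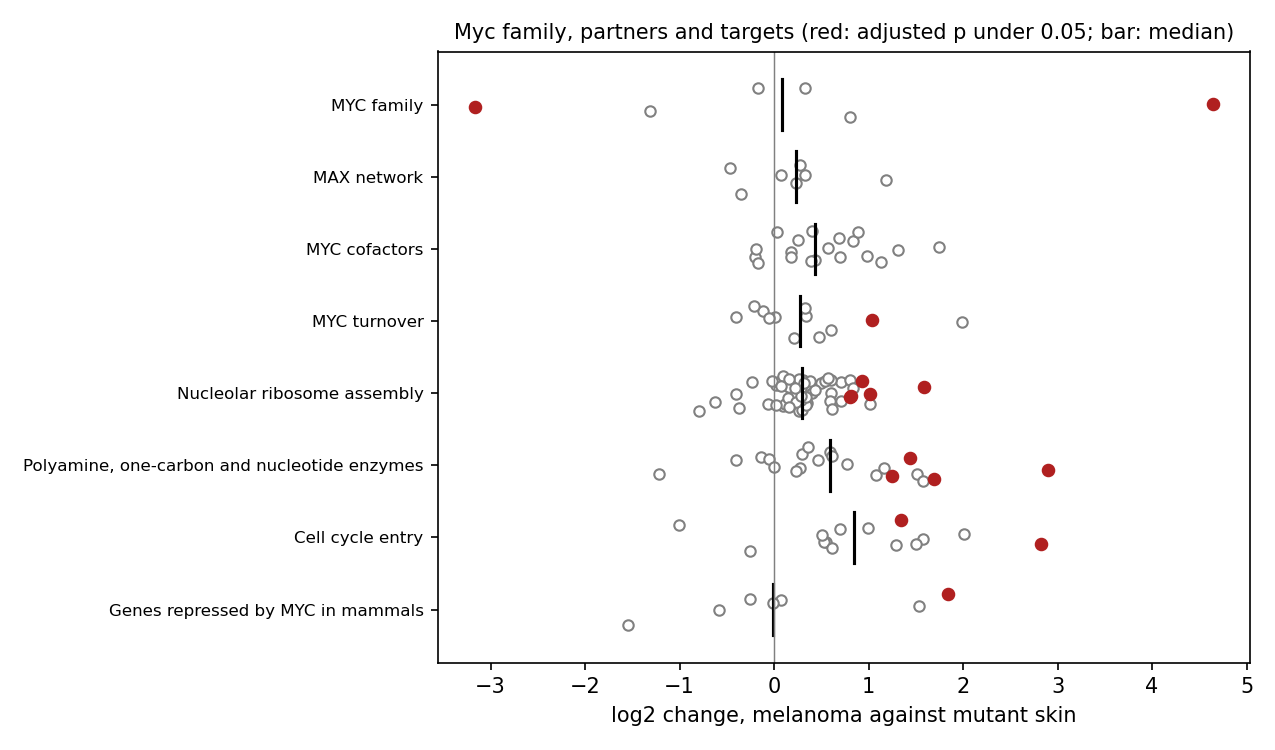
Log2 change of each measured gene of the Myc family and of 7 lists of partners and targets, melanoma against mutant skin, red where the adjusted p is under 0.05, with a bar at the median of each list. The Myc family holds both the highest point, mycn at 4.64, and the lowest, myclb at -3.16, and the other red points lie between 0.81 and 2.89.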

How the data were processed

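Expression was measured on Affymetrix zebrafish arrays, 1 per sample, and samples were grouped by their titles. The authors deposited log2 values, and GCRMA, with no version, is named in the submitters' processing notes. Values of both signs occur in every array and are relative to a reference per probe set that is not stated, so which signals lie near background is unknown. The number of arrays limits the precision. No Myc value lay at the lowest value of the table, -6.64.

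After 115 control probe sets were left out, 15502 were tested. Probe sets with the same single symbol were averaged into a gene (10795 probe sets, 8793 genes, symbols updated by gene ID from the RefSeq table). All 15 arrays entered 1 linear model of 3 groups in limma 3.58.1 (R 4.3.3; 12 residual degrees of freedom), two-sided, Benjamini-Hochberg at 0.05. Errors beside changes are SE and beside levels SD. The script was tested on simulated data. Exact permutation tests used scipy 1.17.1 and figures matplotlib 3.10.9.

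High-oocyte arrays were those whose oocyte level exceeded the lowest one by over 3 log2 units. Melanoma 6 was the only such melanoma, so every result with the oocyte covariate rests on that array within melanoma. The members, the lists and the alternatives were chosen with earlier results of these data known. Tests of myca, mycb, mycla and myclb were added after the data were seen. Genes were named by rule: up to 5 called members per list, max, odc1, ncl, npm1a, aurka, mitfa and sox10, and the 5 most and 2 least alike mycn and mych. Others are mxd4 and sin3aa, as the ends of a range, and those said to be named later. Sequences were not used here.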

Additional observations from a re-analysis of the deposited data

Results flagged for a closer look

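The values of mycla and myclb in melanoma 6 lay far from the other 5 melanomas by Dixon's test. For mycla melanoma 6 was at 5.52 and the next melanoma at 1.00. For myclb it was at 1.90 and the next melanoma at -2.08. The gap took 0.72 and 0.67 of the group's range, above the critical value for 6 arrays. Of 18 groups of values tested 2 held such a sample. For a single group of values chance gives about 1 in 20. The 18 share their arrays and mycn enters several of them, so the count cannot be set against that rate. The oocyte level of melanoma 6 was 3.98 and that of melanoma 1 to 5 was -3.29 to -2.99; its part in these values was not tested.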

How the results depend on the processing

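The rise of mycn in melanoma kept its direction and its call in all 26 alternatives run, single arrays left out and single probe sets included, with log2 changes of 4.04 to 6.28 against mutant skin and 4.14 to 5.97 against wild-type skin. The fall of myclb against mutant skin kept its call in all 24 (-3.95 to -1.93). Against wild-type skin the call of myclb was lost with only the samples of both groups (-3.17, adjusted p = 0.0744) and without some single arrays. Over all single arrays left out the change ran from -3.96 to -2.77. The -3.96 was without melanoma 6, where the call was kept. The cause of the losses was not tested. The contrast of mycn and mych without the high-oocyte arrays was 4.05 against mutant skin and 4.19 against wild-type skin, designs too small for its exact test to pass, and -0.048 between the skin groups with quantile normalization.

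The other reversals are of changes that were not called in either direction, except mycla with the oocyte level as a covariate (1.46 and 1.42, called). Quantile normalization gave -0.31 for mycn and -0.068 for mycla between the skin groups and 0.015 for mych against mutant skin. Array weights gave -0.24, -0.63 and 0.28 for the same genes and comparisons. Without the high-oocyte arrays mych and mycla were 0.019 and 0.67 against mutant skin, mycla 0.50 against wild-type skin, and myca and mycla 0.14 and -0.17 between the skin groups. The covariate gave -0.22 and -0.45 for myca in melanoma against mutant and wild-type skin and -0.031 for mycla between the skin groups. Centring each array on its median gave 0.14 for myclb between the skin groups, where it moved the median of all genes from -0.02 to 0.13.

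With single arrays left out, the changes between the skin groups ran from -0.47 to 0.62 for mycn, -0.41 to 0.028 for mych, -0.71 to 0.10 for myca, -1.30 to 1.31 for mycla, -0.22 to 0.14 for myclb and -0.13 to 0.92 for mycn minus mych. Against mutant skin they ran from -0.50 to 0.27 for mych and -0.026 to 0.48 for mycb, and against wild-type skin from -0.73 to 0.045 for mych and 4.68 to 5.73 for mycn minus mych.

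The number of genes called over the whole table was 1147 for melanoma against mutant skin, 1479 against wild-type skin and 12 between the skin groups. It was 2864, 3882 and 286 with array weights, whose estimation stopped before it converged, 1999, 2746 and 54 with the covariate, and 1975 and 27 without the high-oocyte arrays in the first and the last comparison. Between the skin groups it was 7 with the samples of those groups alone and 30 of 15502 probe sets taken singly. Without single arrays the counts were 700 to 1962, 568 to 2016 and 7 to 21, in the order above. The first was 700 without mutant skin 1, 749 without melanoma 2, 732 without melanoma 5 and 1962 without melanoma 6. The second was 568 without wild-type skin 2 and 576 without wild-type skin 3. The last was 21 without wild-type skin 1 and 7 without wild-type skin 3.

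The titles number the samples, and the labels do not say whether equal numbers share a fish. Same-numbered melanoma and mutant skin correlated over 0.1 in their deviations from the group means in 4 of 6 pairs (-0.05 to 0.67). Of 6 melanomas, 3 correlated best with their own number. The 0.67 was for number 6, where both arrays had a high oocyte level (3.98 and 4.61). This check does not settle whether samples were paired, and pairing was not taken as given. With the number as a replicate block mycn changed by 4.64 against mutant skin (limma adjusted p = 0.000971). The counts of called genes were 1489, 1709 and 8, mycla changed by -0.52 between the skin groups, and no call of a Myc gene changed. This block also joined wild-type skin 1 to 3 to same-numbered samples of mutant fish, which cannot be the same fish. The results against wild-type skin, with the 1709, the 8 and the -0.52, rest on that joining.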
